A study of Mus musculus with 4 samples.

Results

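The 34 DNA replication genes described here encode the licensing factors that load the helicase onto replication origins, the helicase, clamp, primase, polymerase and ligase of the replication fork, the enzymes that make DNA precursors, and factors that act on chromatin, histone mRNA and transcription during S phase. They were picked out by gene symbol from a list, and the rule uses no measured value, but the list was chosen with earlier results of these data known. All 34 were among the 55401 rows of the deposited count table, and all 34 passed the filter on low counts, with between 386 and 12964 counts in each library. By role, 11 belonged to licensing, 14 to fork and polymerase, 4 to nucleotide supply and 5 to chromatin, histone mRNA and transcription.

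Poly(A) RNA was sequenced from splenic B cells of C57BL/6 mice, 2 libraries labelled wild type and 2 labelled as a conditional knockout (cKO) of Adar1 in B cells. Adar1 (current symbol Adar) encodes the deaminase that changes adenosine to inosine in double-stranded RNA. The cells had been purified with anti-CD43 beads, a selection that leaves resting B cells unbound. Both genotypes were then stimulated in the same way for 36 h, with anti-CD40 at 1 µg/ml together with anti-IgM at 10 µg/ml. The sources used here give neither the Cre driver nor the deleted part of Adar1, nor whether each library came from its own mouse. Adar itself stood at 137 and 149.8 counts per 1000000 counts (CPM) in wild type and at 218 and 232 CPM in the libraries labelled cKO, a log2 difference of 0.65 ± 0.063 (SE, adjusted p of 3.39e-08 by edgeR). Loss of the whole gene would give the opposite direction, but the deleted part is not known, so the total of the gene cannot check the label. The name cKO-labelled is therefore kept for these libraries, and all directions given below rest on it.

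Resting B cells do not replicate their DNA. Signals through the antigen receptor and CD40 bring them into the cell cycle, and E2F transcription factors then switch on most replication genes at the passage from G1 to S. In G1 the origin recognition complex, CDC6 and CDT1 load the MCM2 to MCM7 ring onto DNA. In S phase CDC45 and the GINS complex join the ring to form the active helicase, while geminin blocks CDT1 so that no origin is licensed again. Such genes are therefore high in populations with many cycling cells. In a bulk sample, fewer cells in S phase and less RNA per such cell cannot be told apart.

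Total counts were between 17327480 and 19669651 per library. The first principal component separated the genotypes and held 68.53% of the variance. All 8 B-cell markers were detected, with a summed level of 4735 and 4706 CPM in wild type and 3682 and 3784 CPM in cKO-labelled libraries, and 5 of them fell and 1 rose. The 7 dendritic cell markers summed to 60.1 and 59.0 CPM in wild type and 114 and 119.7 CPM in cKO-labelled libraries, and 4 of them rose. The 6 macrophage markers summed to between 123 and 128 CPM and between 45.4 and 54.9 CPM, and the 1 lower gene among them, Adgre1, held most of that sum. T-cell markers were low apart from Lck, which fell (162 and 154 against 125 and 133 CPM), and of the stromal markers Pecam1 rose. The 6 NK-cell markers summed to 1.45 and 1.68 CPM in wild type and to 5.38 and 5.04 CPM in cKO-labelled libraries. The 6 neutrophil markers summed to 1.22 and 0.711 against 2.50 and 3.43 CPM, with Ly6g at 0 throughout, and the 5 erythroid markers to 0.869 and 1.47 against 3.83 and 4.01 CPM. Of these low markers 4 rose. The part of these other cells in the results below was not tested. Ribosomal RNA genes took 0.525% of the counts of wild-type library 2, against 0.0947% to 0.125% elsewhere.

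Between genes, levels are compared only per exonic length, as the FPKM values that the authors deposited. In wild type, the mean FPKM of the 34 genes ranged from 8.02 to 276, with a median of 25.8. Pcna, the sliding clamp that tethers polymerases to DNA, was highest at 276 ± 1.51 FPKM (mean ± SD, n = 2 libraries, as for all such values). Mcm3 at 144 ± 1.12, Uhrf1 at 139.7 ± 2.40, Mcm5 at 135 ± 0.884, Mcm6 at 124 ± 1.36, Mcm7 at 106 ± 0.636 and Mcm4 at 99.2 ± 2.64 FPKM followed. No 2 neighbours among these 7 genes had overlapping wild-type libraries. The next neighbours did overlap, Rrm2 at 69.1 and 74.3 FPKM and Lig1 at 70.1 and 68.6 FPKM. The sixth ring subunit, Mcm2, lay lower at 45.9 ± 0.813 FPKM. The deposited exonic length adds up the exons of every transcript, which gave Mcm2 6956 bases. On the length of its longest coding transcript, a scale chosen after the data were seen, Mcm2 stood at 94.6 FPKM and Mcm4 at 99.2. Rrm1 moved in the same way, from 35.5 to 97.9 FPKM, Tk1 from 23.8 to 86.0, Slbp from 24.4 to 77.7 and Chaf1b from 11.2 to 27.2. The order of levels below the first 4 genes therefore depends on which transcripts are counted in the length. By the deposited length, the low end held Gins3 at 8.02 ± 0.290, Chaf1b at 11.2 ± 0.255, Orc1 at 11.7 ± 0.304 and Pola1 at 11.8 ± 0.424 FPKM. On the longest coding transcript Gins3 at 8.62 and Orc1 at 13.5 FPKM were still the lowest, followed by Fen1 at 15.5, and Chaf1b and Pola1 were higher than Fen1. Fen1 shares 78.8% of its exonic bases with Gm10143 on the opposite strand. How reads there were counted is not known, so the level and rank of Fen1 are uncertain on either length. By the deposited length, 12 of the 34 genes had a mean under 20 FPKM.

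**Figure D1:**
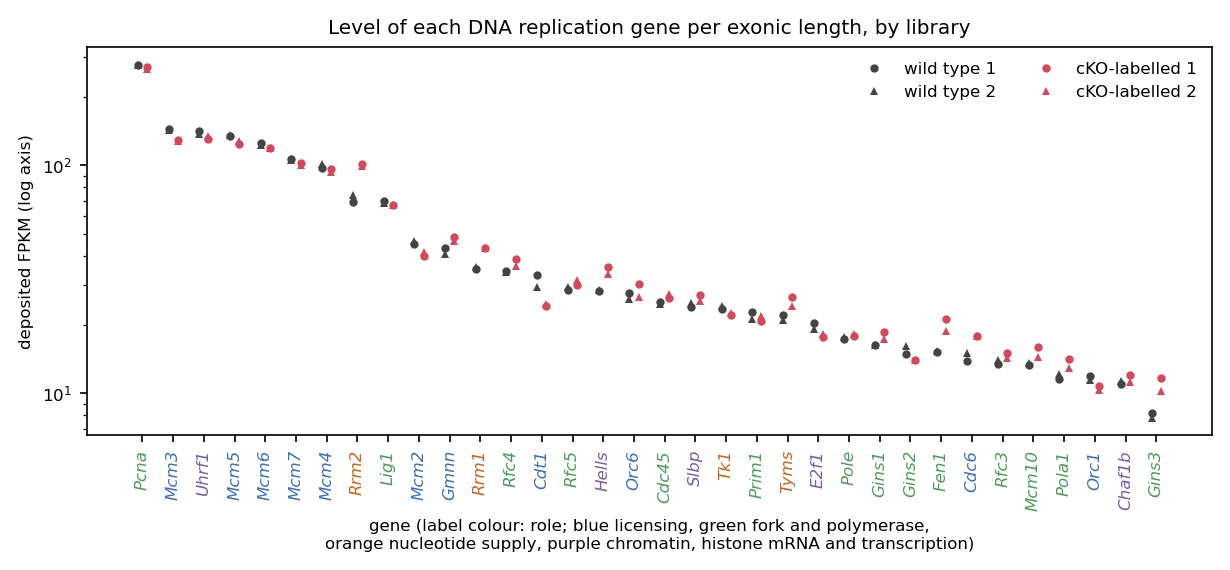
Deposited FPKM (log axis) of the 34 DNA replication genes in each of the 4 libraries, ordered by the wild-type mean. Pcna lies highest at 276 FPKM in wild type and Gins3 lowest at 8.02, and the libraries of both genotypes lie close together for most genes.

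Promoter windows from RefSeq (GRCm38.p6, 250 bases before to 50 after a transcription start) were found for 29 of the 34 genes and were searched on both strands for the letters of E2F sites. The letters searched were TTTCCCGC, TTTCGCGC, TTTGCCGC and TTTGGCGC, and some matches overlap each other. A match was present for 13 of the 29 genes (44.8%), against 4.8% of the 9479 tested protein-coding genes that had a window and 28.1% of the 57 other replication genes that had one. Among licensing genes with a window, 7 of 9 held a match, among fork and polymerase genes 4 of 11, among nucleotide supply genes 0 of 4 and among the others 2 of 5. A gene with several windows was counted if any window held a match, as for Lig1 with 3 windows and Mcm7 and Uhrf1 with 2. The stretches below, 160 bases that end at the base before the start, show such matches in capitals for 4 genes that rose (Cdc6, Gins3, Hells and Pola1) and for 2 ring subunits that were not called (Mcm5 and Mcm6). For Cdt1 and Mcm3, which fell, the matches lie after the start and 30 bases are shown. Of genes with a window, 4 of 8 that rose, 2 of 3 that fell and 7 of 18 that were not called held the letters.
Cdc6, chr11:98907991-98908150, plus strand: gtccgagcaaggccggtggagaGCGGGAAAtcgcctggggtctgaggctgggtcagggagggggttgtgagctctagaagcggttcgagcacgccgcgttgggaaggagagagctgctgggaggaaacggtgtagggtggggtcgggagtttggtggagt
Gins3, chr8:95633399-95633558, plus strand: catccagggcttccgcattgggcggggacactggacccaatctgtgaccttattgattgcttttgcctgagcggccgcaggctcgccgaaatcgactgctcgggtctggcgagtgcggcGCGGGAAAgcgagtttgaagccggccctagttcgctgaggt
Hells, chr19:38930830-38930989, plus strand: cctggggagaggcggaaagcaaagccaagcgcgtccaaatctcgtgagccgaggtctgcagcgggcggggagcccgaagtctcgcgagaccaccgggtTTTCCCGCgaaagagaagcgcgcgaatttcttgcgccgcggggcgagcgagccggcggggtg
Pola1, chrX:93632156-93632315, minus strand: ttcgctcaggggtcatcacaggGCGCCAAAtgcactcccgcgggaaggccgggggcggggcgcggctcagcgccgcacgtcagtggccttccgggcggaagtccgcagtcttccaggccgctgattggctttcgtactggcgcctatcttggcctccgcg
Mcm5, chr8:75109349-75109508, plus strand: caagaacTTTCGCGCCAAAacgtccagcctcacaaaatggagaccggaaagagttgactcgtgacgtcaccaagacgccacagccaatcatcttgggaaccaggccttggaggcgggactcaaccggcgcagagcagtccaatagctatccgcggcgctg
Mcm6, chr1:128359706-128359865, minus strand: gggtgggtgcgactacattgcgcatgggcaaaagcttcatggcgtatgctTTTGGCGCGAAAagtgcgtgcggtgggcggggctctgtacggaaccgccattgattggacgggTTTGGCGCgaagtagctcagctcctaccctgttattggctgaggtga
Cdt1, chr8:122568035-122568064, plus strand: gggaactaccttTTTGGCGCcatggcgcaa
Mcm3, chr1:20820266-20820295, minus strand: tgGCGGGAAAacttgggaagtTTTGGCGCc

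The comparison of genotypes asks how the transcripts of these genes differ between activated B cells labelled wild type and those labelled cKO. Of the 4 genes for DNA precursors, 3 were higher in the cKO-labelled libraries, and Rrm2 had the largest difference of the 34, while Cdt1 and the ring subunits Mcm2 and Mcm3 were lower. Of the 14 fork and polymerase genes, 11 were not called, a share close to that of all genes tested (11100 of 14180). Of the 34 genes, 8 rose and 3 fell in the quasi-likelihood test of edgeR, where a call needed a Benjamini-Hochberg p under 0.05 over the 14180 genes tested. The background was 12.2% of all genes tested called higher, 9.54% called lower and 21.7% called in either direction. Of the 34 genes, 23.5% were called higher and 8.82% lower. By DESeq2 the background was 8.71% higher and 5.61% lower, and 20.6% and 8.82% of the 34 were called. With upper-quartile factors it was 11.4% and 11.5%, so whether the share of lower genes lies above or below the background depends on the setting. With the trend of counts against GC content removed from each library, 7 rose and 1, Cdt1, fell. Cdt1 was also the 1 gene that fell without wild-type library 1, wild-type library 2 or cKO-labelled library 1. The median log2 difference, cKO-labelled minus wild type, was 0.07 over the 34 genes and -0.0058 over all genes tested. Differences were small. The lowest was -0.36 and the highest 0.48, so none of the 34 reached a 1.5-fold change.

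The summed level hid these shifts. Together the 34 genes held 0.697% of counts in both wild-type libraries and 0.707% and 0.700% in cKO-labelled libraries 1 and 2. Licensing genes summed to 3163 and 3138 CPM in wild type and to 2963 and 2953 CPM in cKO-labelled libraries, 0.939 times the wild-type mean. Nucleotide supply genes summed to 838 and 855 CPM in wild type and to 1029.7 and 1015 CPM in cKO-labelled libraries, 1.21 times the wild-type mean. Within licensing, the mean sum of Mcm2 to Mcm7 went from 2808 CPM in wild type to 2613 CPM in cKO-labelled libraries. Within nucleotide supply, that of Rrm1 and Rrm2 went from 591 to 754 CPM. The mean sum of all licensing genes went from 3151 to 2958 CPM, a slightly smaller fall than that of Mcm2 to Mcm7 alone. For all nucleotide supply genes it went from 846 to 1022 CPM, and Rrm1 and Rrm2 made up most of that rise. For fork and polymerase genes and for the chromatin group the ratio to wild type was 1.02 each.

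**Figure D2:**
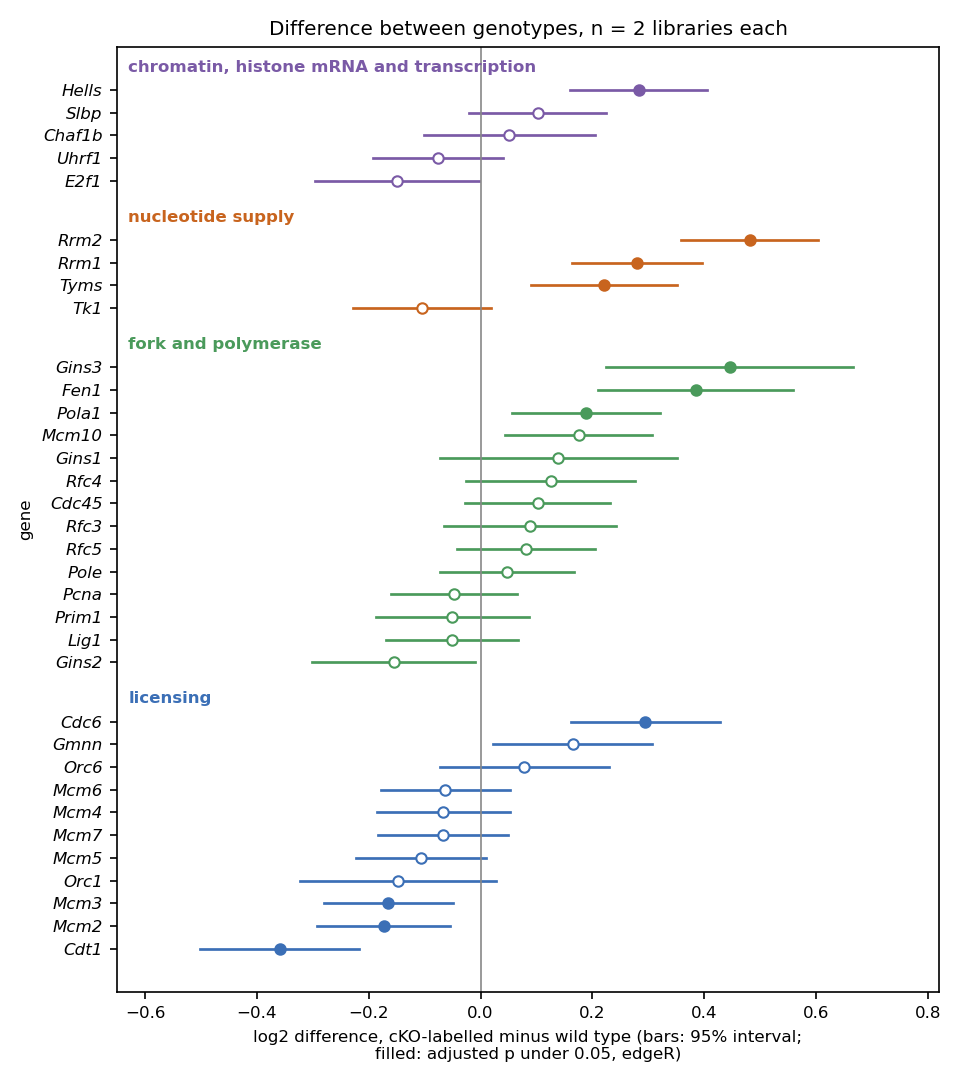
Log2 difference (cKO-labelled minus wild type) of each of the 34 genes with its 95% interval, by role. Filled points are the 11 called genes. Licensing genes lie mostly to the left of 0 down to -0.36 for Cdt1, and Rrm2 lies farthest to the right at 0.48.

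Among the 11 licensing genes, 1 rose (9.09%, background 12.2%), 3 fell (27.3%, background 9.54%) and 7 were not called. Their median log2 difference was -0.07. Cdt1, which brings the MCM ring to origins, stood at 104 and 91.8 CPM in wild type and at 75.4 and 77.4 CPM in cKO-labelled libraries. Both cKO-labelled libraries lay below both wild-type libraries. Its log2 difference was -0.36 ± 0.069 (SE from the test, here and below; adjusted p of 0.000394 by edgeR). The gene (ENSMUSG00000006585) lies on chromosome 8 at 122568015 to 122573554, plus strand, GRCm38.

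Cdc6, the ATPase that acts with CDT1 at the origin, went the other way. It stood at 72.7 and 78.4 CPM in wild type and at 92.7 and 92.8 CPM in cKO-labelled libraries, with no overlap. The log2 difference came to 0.29 ± 0.065 (adjusted p of 0.0016 by edgeR). Cdc6 (ENSMUSG00000017499) lies on chromosome 11 at 98907801 to 98923940, and the E2F match printed above is 138 bases before the start used by RefSeq. Per length, Cdt1 was 2.39 and 1.95 times the level of Cdc6 in wild type and 1.35 and 1.39 times in cKO-labelled libraries. Gmnn, which encodes geminin, the inhibitor of CDT1, stood at 64.1 and 59.8 CPM in wild type and at 70.8 and 67.9 CPM in cKO-labelled libraries, and was not called (0.16 ± 0.069, adjusted p of 0.096 by edgeR). The FPKM of Cdt1 was 0.760 and 0.717 times that of Gmnn in wild type and 0.496 and 0.532 times in cKO-labelled libraries. These ratios were chosen after the values were seen and were not tested.

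The 6 subunits of the MCM ring all had a fitted difference below 0, also in each of the 14 alternatives, and 2 passed the test. Over all genes tested, 7248 of 14180 had a fitted difference below 0. The alternatives reuse the same 4 libraries, so they are not independent of each other. Mcm2 stood at 316 and 323 CPM in wild type and at 277 and 289.7 CPM in cKO-labelled libraries (-0.17 ± 0.057, adjusted p of 0.033 by edgeR). Mcm3 stood at 544 and 535 CPM in wild type and at 484 and 479 CPM in cKO-labelled libraries (-0.17 ± 0.056, adjusted p of 0.0362 by edgeR). For both genes the genotypes did not overlap, but the calls were close to the threshold. Mcm2 was not called without wild-type library 1, wild-type library 2 or cKO-labelled library 1, with adjusted p between 0.0163 and 0.195 over its alternatives. Mcm3 was not called without any 1 of the 4 libraries, with adjusted p between 0.0192 and 0.158.

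The other ring subunits gave values close together. Mcm5 stood at 540.3 and 542 CPM in wild type and at 495 and 511 CPM in cKO-labelled libraries, and the 95% interval of its ratio was 0.857 to 1.01. For Mcm4, Mcm6 and Mcm7 the log2 difference was -0.07, -0.06 and -0.07, with intervals of the ratio from 0.879 to 1.04, 0.884 to 1.04 and 0.881 to 1.04. The 6 subunits summed to 2812 and 2804 CPM in wild type and to 2613 and 2614 CPM in cKO-labelled libraries. Of the origin recognition complex, Orc1, its largest ATPase subunit, stood at 41.6 and 39.8 against 37.5 and 35.9 CPM (-0.15 ± 0.085). Orc6 stood at 68.2 and 64.2 against 74.2 and 65.5 CPM, and its libraries overlapped. Neither was called.

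**Figure D3:**
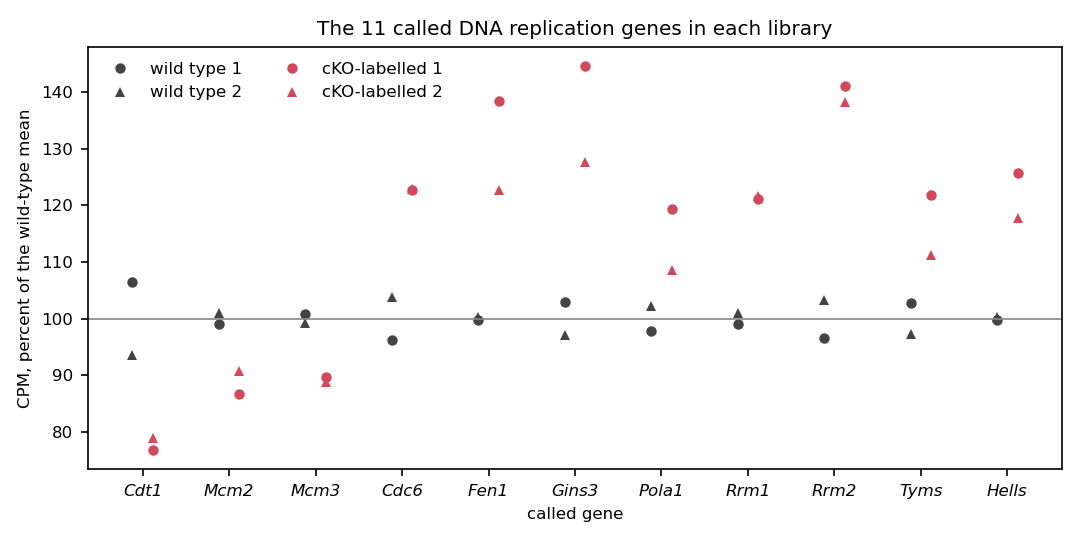
CPM of the 11 called genes in each library, as a percentage of the wild-type mean of that gene. For Cdt1, Mcm2 and Mcm3 both cKO-labelled libraries lie below both wild-type libraries, and for the other 8 genes both lie above.

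Among the 14 fork and polymerase genes, 3 rose (21.4%, background 12.2%), 0 fell (background 9.54%) and 11 were not called. Of the 14, 5 had an unadjusted p under 0.05, and DESeq2 called 2 higher and 0 lower. Their median log2 difference was 0.10. Gins3, a subunit of the GINS complex that activates the helicase, stood at 22.4 and 21.1 CPM in wild type and at 31.4 and 27.8 CPM in cKO-labelled libraries (0.45 ± 0.107, adjusted p of 0.00353 by edgeR). Its partners Gins1 (24.8 and 24.7 against 28.2 and 26.3 CPM) and Gins2 (61.4 and 66.0 against 57.0 and 57.5 CPM) were not called, with log2 differences of 0.14 ± 0.103 and -0.16 ± 0.070. Of these, Gins2 shares 67.3% of its exonic bases with Gse1 on the opposite strand, and Gse1 was itself called lower. The kit named in the labels, NEBNext Ultra RNA, is not a directional one, and no source used here gives the strand setting of the counting, so reads of the 2 genes may not be told apart there.

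Fen1, the nuclease that trims Okazaki fragment flaps, stood at 36.8 and 37.0 CPM in wild type and at 51.1 and 45.3 CPM in cKO-labelled libraries (0.39 ± 0.084, adjusted p of 0.00161 by edgeR). Its value is uncertain for the same reason. Gm10143, on the opposite strand, covers 78.8% of the exonic bases of Fen1, and was given 17 to 26 counts per library. No source used here says how reads in the shared bases were counted. In all, 12 of the 34 genes share exonic bases with a gene on the opposite strand, and beyond Fen1 and Gins2 the share was 12.7% or less. Lig1, the ligase that then seals the fragments, stood at 300.5 and 293 against 286 and 286 CPM (-0.05 ± 0.057, interval of the ratio 0.889 to 1.05), and was not called.

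Pola1, the catalytic subunit of the polymerase that starts each new strand, stood at 102 and 107 CPM in wild type and at 125 and 113 CPM in cKO-labelled libraries (0.19 ± 0.064, adjusted p of 0.037 by edgeR). Of the called genes it kept its call least often, in 7 of 14 alternatives, and lost it by DESeq2, with upper-quartile factors, with the GC trend removed, and without wild-type library 1, wild-type library 2 or cKO-labelled library 1, with adjusted p between 0.00893 and 0.313 over the alternatives. Mcm10, which helps to activate the helicase, lay just outside the threshold (103 and 104 against 123 and 111 CPM, adjusted p of 0.0526 by edgeR), and was called without cKO-labelled library 2, at 0.0113. Prim1, the primase subunit that works with Pola1, had overlapping libraries (88.7 and 81.6 against 80.4 and 84.1 CPM).

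The most abundant fork gene hardly differed. Pcna stood at 667 and 658 CPM in wild type and at 646 and 637 CPM in cKO-labelled libraries, and its ratio had an interval of 0.895 to 1.05. A processed pseudogene, Pcna-ps2, was given 31 to 53 counts per library. For Pole, the leading-strand polymerase, the interval was 0.951 to 1.12, for Cdc45, the helicase cofactor, 0.981 to 1.17, and for the clamp loader subunits Rfc3, Rfc4 and Rfc5 it was 0.955 to 1.18, 0.983 to 1.21 and 0.971 to 1.15. Of the 23 genes that were not called, 21 had a 95% interval between 0.8 and 1.25 times wild type. The exceptions were Orc1 and Gins1, which reached 0.799 and 1.28. For 4 of the 23, Mcm10, Gmnn, Gins2 and E2f1, the unadjusted interval left out 1.

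Among the 4 nucleotide supply genes, 3 rose (75%, background 12.2%) and 1 was not called, with a median log2 difference of 0.25. Rrm2, the subunit of ribonucleotide reductase that limits the enzyme and is made in S phase, stood at 192 and 206 CPM in wild type and at 281 and 275 CPM in cKO-labelled libraries. Its log2 difference of 0.48 ± 0.059 had the smallest adjusted p of the 34 genes, 1.46e-06 by edgeR. Rrm1, the large subunit, stood at 388 and 395 against 475 and 477 CPM (0.28 ± 0.056, adjusted p of 0.000677 by edgeR). By deposited FPKM, Rrm2 was 1.97 and 2.07 times Rrm1 in wild type and 2.35 and 2.29 times in cKO-labelled libraries. Which of the 2 is higher depends on the length, since on the longest coding transcript Rrm2 stood at 90.6 and Rrm1 at 97.9 FPKM in wild type.

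Tyms, which makes thymidylate, stood at 135 and 128 CPM in wild type and at 160.2 and 146 CPM in cKO-labelled libraries (0.22 ± 0.063, adjusted p of 0.0128 by edgeR). It was not called without wild-type library 2 or without cKO-labelled library 1, with adjusted p between 0.0026 and 0.145 over its alternatives. Tk1, which salvages thymidine, stood at 122 and 126 against 114 and 117 CPM and was not called (-0.10 ± 0.060). The genotypes did not overlap for any of the 4 genes, and Tk1 lay on the lower side. Libraries did not overlap for 31 of all 34 replication genes, 17 higher and 14 lower. Over all genes tested 57.9% did not overlap, 29.2% higher and 28.7% lower.

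Of the 5 genes that act on chromatin, histone mRNA and transcription, 1 rose (20%, background 12.2%) and 4 were not called. Hells, a chromatin remodeller needed for DNA methylation, stood at 204 and 205 CPM in wild type and at 257 and 241 CPM in cKO-labelled libraries (0.28 ± 0.059, adjusted p of 0.000987 by edgeR). Uhrf1, which guides the maintenance methyltransferase to new DNA, stood at 605 and 587 against 556 and 575 CPM (interval of the ratio 0.876 to 1.03). Chaf1b, a subunit of the histone chaperone CAF-1, had overlapping libraries at 51.6 and 53.1 against 56.2 and 52.4 CPM. Slbp, which binds the stem-loop of histone mRNA, stood at 146 and 150.4 against 163 and 155 CPM. E2f1, a transcription factor that drives replication genes, stood at 64.5 and 60.5 against 55.5 and 57.1 CPM (-0.15 ± 0.071, adjusted p of 0.144 by edgeR).

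GC content moved with these differences. Across the 34 genes, the log2 difference had a Pearson r of -0.497 and a Spearman rho of -0.525 with the GC content of the longest transcript, against -0.105 and -0.221 over 14165 genes tested. These are correlations across genes that share the same 4 libraries, and genes are not independent replicates. The 3 genes that fell had 51.7% to 57.8% GC and the 8 that rose 37.7% to 53.8%. Cdt1 was among the richest in GC at 57.8%, next to E2f1 at 58.3%, and Hells was the poorest at 37.7%. With the GC trend of each library removed, Cdt1 was still called lower, at -0.24 ± 0.065. Mcm2 at -0.13 ± 0.054, Mcm3 at -0.11 ± 0.052 and Pola1 at 0.11 ± 0.060 kept their sign and were not called. The licensing median was then -0.09, and 7 of the 11 licensing genes had an unadjusted p under 0.05, against 5 before. E2f1 moved from -0.15 to -0.03. What the relation with GC content comes from was not tested.

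**Figure D4:**
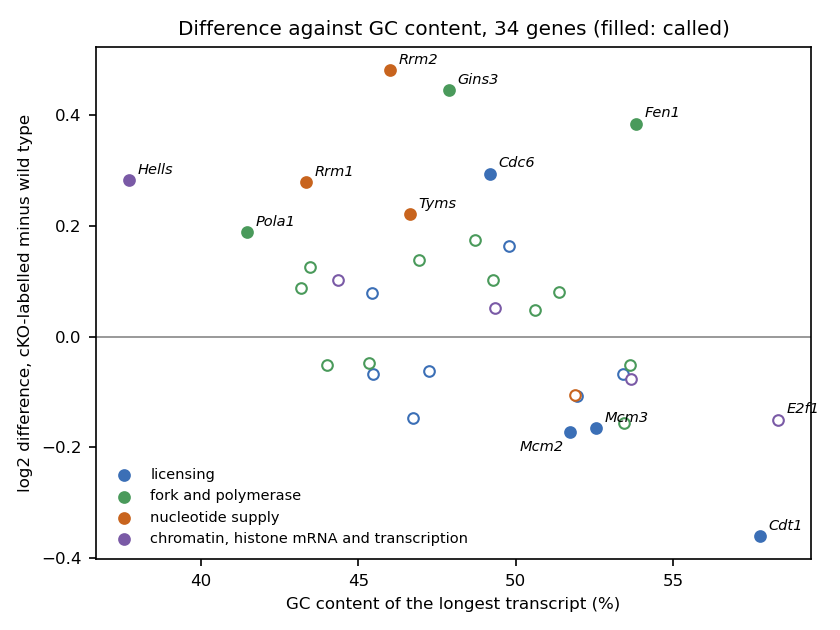
Log2 difference of the 34 genes against the GC content of the longest transcript. Hells, at 37.7% GC, lies at 0.28, and Cdt1, at 57.8%, lies at -0.36, with Rrm2, Gins3 and Fen1 above the other genes of like GC content.

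Of 69 other replication genes, all of which were tested, 10 rose (14.5%) and 7 fell (10.1%), with a median log2 difference of 0.02. The background was 12.2% higher and 9.54% lower, so these genes were called about as often as all genes tested. DESeq2 called 5 higher (7.25%, background 8.71%) and 4 lower (5.8%, background 5.61%). With upper-quartile scaling 9 were higher (13%, background 11.4%) and 10 lower (14.5%, background 11.5%). In licensing, where the median log2 difference was 0.02 against -0.07 among the 34 genes, 2 of 14 rose. These were Dbf4, which activates the kinase that fires origins (55.5 and 56.3 against 75.8 and 69.8 CPM, 0.38 ± 0.070), and Ticrr, which helps to load CDC45 (0.23 ± 0.075, not called by DESeq2). In fork and polymerase, 1 of 26 rose and 4 fell. Clspn, an adaptor of the replication checkpoint, rose by 0.24 ± 0.063. Pold1, the catalytic subunit of the lagging-strand polymerase, stood at 328 and 306 against 245 and 237 CPM (-0.40 ± 0.059, adjusted p of 2.08e-05 by edgeR). Timeless, of the fork protection complex, Rnaseh2c, of the nuclease that removes ribonucleotides from DNA, and Rpa1, which coats single-stranded DNA, had log2 differences of -0.31 ± 0.060, -0.20 ± 0.071 and -0.16 ± 0.058, of which DESeq2 called Timeless.

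In nucleotide supply, 2 of 15 other genes rose (13.3%, background 12.2%) and 2 fell (13.3%, background 9.54%). Their median log2 difference was -0.05, against 0.25 among the 34 genes. Samhd1, which breaks down the DNA precursors that ribonucleotide reductase makes and is known as a restriction factor for viruses, stood at 177 and 178 CPM in wild type and at 259.8 and 256 CPM in cKO-labelled libraries (0.54 ± 0.058, adjusted p of 1.71e-07 by edgeR). Dck, which salvages deoxycytidine, rose by 0.44 ± 0.076. Cad, which begins pyrimidine synthesis, and Nme1, a nucleoside diphosphate kinase, had log2 differences of -0.25 ± 0.060 and -0.21 ± 0.059. In chromatin and regulation, 5 of 14 rose (35.7%, background 12.2%) and 1 fell (7.14%, background 9.54%) by edgeR. By DESeq2, 1 rose, E2f8, and 0 fell (7 with an unadjusted p under 0.05). The histone chaperone genes Asf1a and Asf1b rose by 0.32 ± 0.094 and 0.25 ± 0.072 by edgeR, and so did E2f8, a repressor of E2F targets, by 0.37 ± 0.078, and Tcf19 by 0.22 ± 0.068. Rb1, the retinoblastoma protein that holds E2F in check, fell by edgeR (70.3 and 73.1 against 63.5 and 58.4 CPM, -0.23 ± 0.069).

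Genes of G2 and mitosis, the next stage of the cycle, gave another picture in the same libraries. This list was chosen with earlier results of these data known, so its values are a description and not an independent contrast. Of 28 tested, 26 rose (92.9%, background 12.2%) and 0 fell (background 9.54%), with a median log2 difference of 0.48. Of the 28, 27 had an unadjusted p under 0.05. DESeq2 also called 26 higher and 0 lower. They summed to 2749.5 and 2805 CPM in wild type and to 3925 and 3683 CPM in cKO-labelled libraries, 1.37 times the wild-type mean against 1.01 times for the 34 replication genes. The spindle gene Nusap1 (0.79 ± 0.066), the kinetochore motor gene Cenpe (0.63 ± 0.064) and the topoisomerase gene Top2a (0.52 ± 0.056) had the smallest adjusted p of that list. The difference between the lists was not tested.

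The promoter letters differed between the lists too. The letters searched next were TTTGAA of the CHR element, through which the DREAM complex regulates mitotic genes. Of genes with a window, 18 of 23 G2 and mitosis genes (78.3%) and 4 of 29 replication genes (13.8%) held them. Among tested protein-coding genes with a window it was 14.5%. The 4 were Fen1 and Gins3, which rose, Mcm2, which fell, and Cdc45, which was not called. In Gins3 the CHR letters begin 28 bases before the start, close to the E2F match that begins 41 bases before it, and both are within the stretch printed above. E2F letters were found for 1 of the 23 G2 and mitosis genes with a window. Of genes with a window, the letters CCAAT were found for 62.1% of the replication genes and 50.9% of the other replication genes. For G2 and mitosis genes it was 82.6%, and for tested protein-coding genes 43.6%. No match says only that these letters are not in the windows searched.

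**Figure D5:**
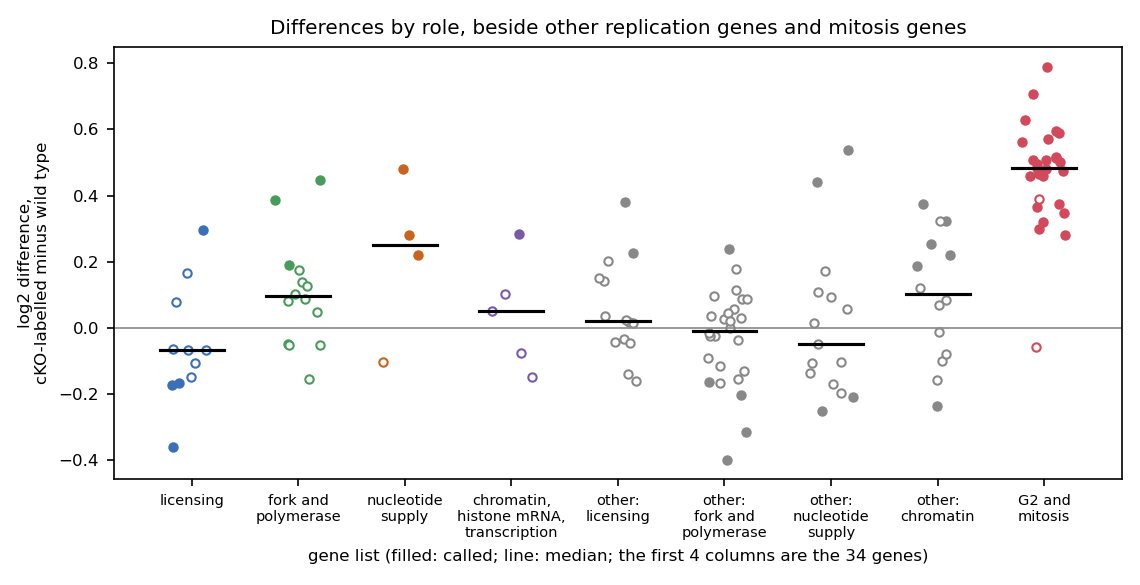
Log2 difference of each gene by list, with called genes filled and a line at each median. The medians of the 34 genes run from -0.07 for licensing to 0.25 for nucleotide supply, and that of G2 and mitosis genes is 0.48. Among the other replication genes the median is 0.02 for licensing and -0.05 for nucleotide supply.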

How the data were processed

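For every gene the authors deposited raw read counts by library, beside FPKM values per exonic length and library total, per the file headers. Recomputed from count, length and total, the deposited FPKM values differed by at most 0.005. HTSeq 0.6.1, HISAT2 2.0.1, cutadapt 1.9.1, bcl2fastq 2.17.1.14 and the GRCm38 build are named in the submitters' processing notes, without settings. The strand setting of the counting is not stated there. Every row named a gene, and 99.53% of rows matched GENCODE M21 (GRCm38), which supplied gene types, overlaps and the GC content of the longest transcript.

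Counts were fitted with edgeR 4.0.16 in R 4.3.3 (filterByExpr with a minimum count of 10 and total of 15, TMM factors, quasi-likelihood test of genotype on 4 libraries, Benjamini-Hochberg over 14180 genes, called under 0.05). CPM uses the TMM-scaled totals. SE is the absolute log2 difference divided by the square root of F, and 95% intervals follow from it, unadjusted. Intervals cover only the spread between these libraries, which may be technical, since the labels name no separate mice or cultures. The spread used for each gene was moderated by edgeR with that of the other genes (median total degrees of freedom 22.23). SE and intervals therefore do not rest on the libraries of that gene alone. The test was run on simulated counts with the same spread set for every gene, and only well-expressed genes were changed. It recovered 100% of 2-fold, 97% of 1.5-fold and 54.5% of 1.25-fold changes, and 11 of 179 calls were false. Alternatives were DESeq2 1.42.0, other scaling factors and low-count filters, removal of ribosomal RNA rows or of the GC trend of each library, the replicate number as a block, and leaving out each library in turn.

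The 34 genes, the other lists, markers and promoter letters were chosen with earlier results of these data known. Every called member is given by library. Of other lists, the called genes with the smallest adjusted p are named, at most 4 in each direction (3 for G2 and mitosis). Promoter sequences are from RefSeq, GRCm38.p6. Same-numbered libraries were not treated as pairs.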

Additional observations from a re-analysis of the deposited data

How the results depend on the processing

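Of the 11 called genes, 7 (Rrm2, Rrm1, Cdc6, Fen1, Gins3, Hells and Cdt1) were called in the same direction in all 14 alternatives, and none of the 11 changed sign in any. The 7 were not equally firm. Over the alternatives Cdc6 ran from 0.237 to 0.344 and Gins3 from 0.351 to 0.533 in log2 difference, and both came close to the threshold. The other 4, Mcm2, Mcm3, Pola1 and Tyms, lost their call in some alternatives. Of the 23 genes not called, 22 were called in none (Mcm10 is the exception). The number of the 34 genes that fell was 3, and 1 after removal of the GC trend, alone or with the replicate block. Leaving out 1 library at a time gave 1 to 2 lower genes (1 without wild-type library 1, wild-type library 2 or cKO-labelled library 1) and 6 to 9 higher. The median over the 34 genes, 0.065, was 0.043 with upper-quartile factors, 0.038 without the GC trend, 0.036 without it and with the replicate block, and 0.024 to 0.059 when 1 library was left out. Over all genes, DESeq2 called 795 lower where edgeR called 1353. The cause of these moves was not tested. With the replicate number as a block (replicate block), 9 of the 34 genes rose and 3 fell. Same-numbered libraries did not deviate together (correlation -0.0288). Where a library was left out, the lone library of that genotype was assumed to vary like the other genotype. With 2 libraries per genotype, small differences are not resolved: of the 23 genes not called, 0 had a 95% interval of the ratio within 0.9 to 1.1.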
